A study of Homo sapiens with 18 samples.

Results

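The 10 genes described here encode enzymes that break down sphingomyelin and ceramide or dispose of their products, and close relatives of those enzymes. They are named by symbol (SMPD1, SMPDL3A, SMPDL3B, SMPD2, SMPD4, ASAH1, ACER3, SGPL1, SPHK1 and CERK). The set was chosen by the levels of SMPDL3B and ASAH1, which had been seen to rise over siCtrl in these libraries. All 10 were matched to 1 Ensembl identifier each among the 57820 listed genes, and all 10 were among the 15307 genes with enough counts to be tested. The rises of SMPDL3B and ASAH1 chose the set, so they are given below as a description with no p-value. Where a call of either gene over siCtrl is mentioned, nothing is read from it.

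The samples were total RNA of MDA-MB-231 cells, an established line from a human triple-negative breast tumour. Cells received siRagC1 or siRagC2, siRNAs that target RagC (gene RRAGC), or siCtrl, the control siRNA, by lipofection, and the labelled knock-down lasted 72 hours in every group. RagC is a GTPase that tethers the nutrient-sensing kinase complex mTORC1 to the lysosome, and the question was how its partial loss alters transcript levels. Each group had 6 libraries, numbered as biological replicates. The labels do not say whether these were separate cultures, so the p-values speak only for the scatter among these libraries, which may be technical. Library codes fell into 2 series, D1103 (replicates 1 and 2 of each group) and D1221 (replicates 3 to 6), whose meaning the labels leave unstated. In bulk RNA, fewer cells of a type and less RNA per cell cannot be told apart.

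Sphingomyelin is a phospholipid of the plasma membrane and of endocytic membranes. Sphingomyelinases cut it to ceramide, ceramidases cut ceramide to sphingosine, and sphingosine kinases phosphorylate sphingosine to sphingosine-1-phosphate (S1P), a lipid that cells secrete as a signal. S1P lyase ends the pathway by an irreversible cut, and ceramide kinase diverts ceramide to ceramide-1-phosphate. The enzymes are spread over compartments: acid enzymes work in the lysosome, neutral and alkaline ones at the plasma membrane, the endoplasmic reticulum, the nuclear envelope or the Golgi.

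RRAGC, the silenced gene, was measured first. It had 12.3 CPM at the lowest, 24.3 at the median and 31.9 at the highest with siRagC1, and 19.3, 26.1 and 40.8 CPM with siRagC2, against 60.6, 61.5 and 67.9 CPM with siCtrl (CPM, each count relative to its library's total, scaled between libraries with TMM factors). Every knock-down library lay below every siCtrl library, and the median remaining level was 39.7% (siRagC1) and 42.4% (siRagC2) of the control with the same number. By the rule given under processing, the numbers did not pair siRagC1 with siCtrl. Values by same-numbered control are therefore a description only, here and below. The libraries differed in depth, with totals of 14829597 to 71622456 counts. RRAGC had log2 ratios of group means of -1.13 in D1221 and -2.05 in D1103 with siRagC1, and -0.97 in D1221 and -1.65 in D1103 with siRagC2. A difference of the siRNA effect between series was not called for RRAGC (edgeR, adjusted p = 1.00 for siRagC1 and 0.735 for siRagC2, unadjusted p = 0.00236 and 0.0141). Its part in the values of the 10 genes by series was not tested. Of the markers of MDA-MB-231 that were checked, VIM stood at 3790 CPM or more in every library, and the hormone receptor genes ESR1 and PGR at 0.164 CPM or less. ERBB2, the third gene of the triple-negative definition, stood at 80.1 to 123 CPM. Of the other genes listed as low or absent in this line, CDH1 stood at 1.60 CPM or less, while GATA3 (6.18 to 10.3 CPM), EPCAM (13.2 to 19.3), KRT8 (406 to 665) and KRT18 (229 to 301) were present. The summed level of 7 markers of immune, endothelial and fibroblast cells ran from 6.08 to 7.59 CPM with siRagC1, from 5.03 to 9.59 with siRagC2 and from 5.90 to 9.87 with siCtrl. Of these 7, PDGFRB made up most of the sum (4.16 to 8.79 CPM), and CD3E had at most 2 counts in a library.

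The upstream sequences of SMPDL3B, which changed most, and of SMPD1, its lysosomal relative, are shown because genes of the lysosome are known to carry E-box motifs near their starts, which the MiT/TFE transcription factors bind. RefSeq promoter windows (GRCh38.p14) around each gene's start were matched by symbol for 7 of the 10 genes, all but SMPDL3A, ASAH1 and CERK. The runs below lie just before the annotated start, are written 5′ to 3′ on the plus strand and have no capitals because neither holds the motif CACGTG. They cover chr1:27934843-27934992 for SMPDL3B and chr11:6390281-6390430 for SMPD1, and both end before the first base of the gene in GENCODE 29.
SMPDL3B: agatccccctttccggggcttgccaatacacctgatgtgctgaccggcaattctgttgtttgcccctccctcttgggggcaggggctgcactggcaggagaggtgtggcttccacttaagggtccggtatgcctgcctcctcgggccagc
SMPD1: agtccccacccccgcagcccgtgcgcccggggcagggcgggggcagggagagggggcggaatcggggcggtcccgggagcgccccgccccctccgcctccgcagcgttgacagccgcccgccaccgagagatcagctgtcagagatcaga
The SMPD1 run had 17 CG steps and 76.7% G or C in its 150 bases. The SMPDL3B run had 4 CG steps and 62% G or C. Across the whole windows, CACGTG (its own reverse complement) occurred in 0 of the 7 genes, and so did the longer GTCACGTG, which contains it and was searched on both strands. Of all 27305 genes with a window, 8.78% held CACGTG and 2.93% held GTCACGTG. These letters are therefore absent from these windows only, and no other part of the genes was searched.

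The levels of the enzymes in unsilenced cells spanned more than an order of magnitude. Per kilobase of annotated exon (GENCODE 29, GRCh38), SMPD1, the lysosomal acid sphingomyelinase, was highest in siCtrl libraries at 18.6 ± 1.95 CPM per kb (mean ± SD, n = 6). CERK, the ceramide kinase, followed at 15.5 ± 0.709 CPM per kb, and SMPD4, a neutral sphingomyelinase of the endoplasmic reticulum and nuclear envelope, at 12.1 ± 0.966 CPM per kb. SGPL1, the S1P lyase, stood at 9.17 ± 0.769 CPM per kb. SMPD1 exceeded CERK in 6 of 6 libraries, but their ranges over libraries overlapped. CERK, SMPD4 and SGPL1 did not overlap with each other.

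SPHK1, sphingosine kinase 1, ACER3, an alkaline ceramidase, and SMPDL3A, a secreted relative of SMPD1, could not be ordered. They stood at 5.45 ± 0.862, 5.38 ± 0.763 and 5.31 ± 0.678 CPM per kb in siCtrl libraries, and their ranges overlapped. ASAH1, the lysosomal acid ceramidase, stood at 4.40 ± 0.154 CPM per kb and SMPD2, a neutral sphingomyelinase, at 4.03 ± 0.442, also with overlapping ranges. SMPDL3B, a relative of SMPD1 anchored on the outer face of the plasma membrane, was lowest at 0.748 ± 0.177 CPM per kb, below every other member in every library range. Places depended on the length used, and that of ASAH1 most: its annotated exons cover 15378 bases, while its principal transcript has 2512 bases. Per kilobase of principal transcript, ASAH1 was the highest of the 10 at 26.9 ± 0.944 CPM per kb, ahead of SMPD1 at 23.4 ± 2.45. By mean, SMPD4, at 18.2 ± 1.46, then stood above CERK, at 17.2 ± 0.787, and SMPDL3A above ACER3. Ranges over libraries overlapped within each of these pairs, as they did for ASAH1 and SMPD1 by this length. SMPDL3B was still lowest at 1.06 ± 0.252.

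**Figure D1:**
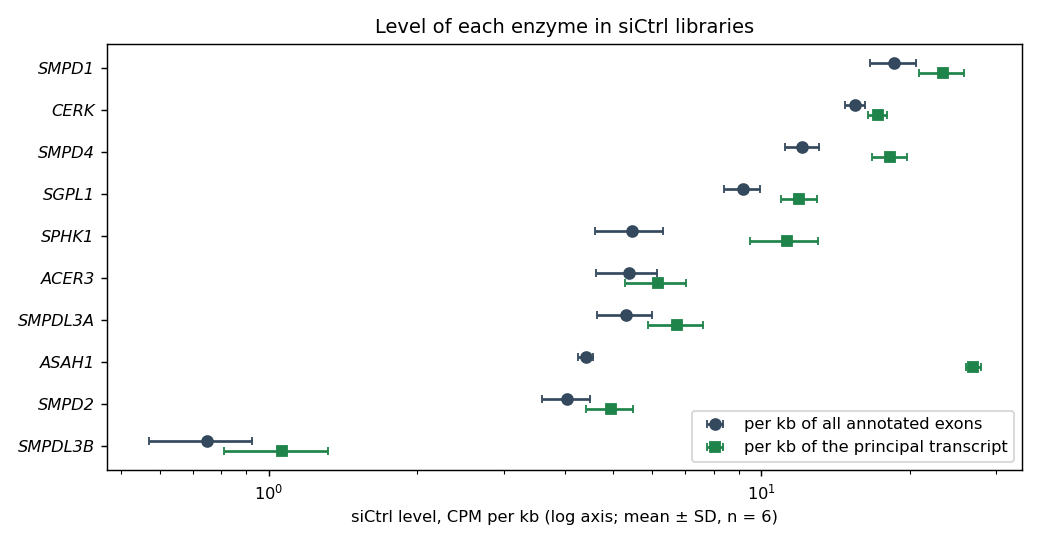
Level of each of the 10 genes in the 6 siCtrl libraries, in CPM per kilobase on a log axis, with points at the mean and bars of 1 SD; circles use all annotated exons and squares the principal transcript. SMPDL3B is lowest by either length, while ASAH1 moves from 4.40 to 26.9 CPM per kb with the shorter length.

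The comparison of each RagC siRNA with siCtrl asks which of these enzymes change when RagC is silenced. SMPDL3B was higher with both siRNAs, and it moved most of the 10. It had 2.38 CPM at the lowest, 3.46 at the median and 3.94 at the highest with siRagC1, and 2.43, 3.96 and 5.66 CPM with siRagC2, against 1.42, 1.99 and 2.60 CPM with siCtrl. The knock-down libraries lay above the controls except for siRagC1 replicate 3 and siRagC2 replicate 6, which fell inside the siCtrl range. In same-numbered pairs the level was above that of the control in 6 of 6 for each siRNA, at a median of 180% with siRagC1 and 184% with siRagC2.

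SMPDL3B had a fitted log2 fold change of 0.71 ± 0.16 (SE) with siRagC1 and 1.03 ± 0.15 with siRagC2, which is 1.64-fold and 2.05-fold. These placed it at the 99.6th and 99.9th percentile of all tested genes, from which nothing is read because its rise chose the set. It is also the member with the fewest reads, with 27 to 275 counts per library and a median of 86, so counting error weighs more on it than on the others. An antisense gene covers 9.44% of its exons in GENCODE 29. No source used here gives the strand setting of the counting, so reads of the antisense gene cannot be told apart. The siRagC1 call ended without siCtrl replicate 1 (log2 fold change 0.61), siCtrl replicate 5 (0.66) or siRagC1 replicate 2 (0.70).

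ASAH1 was higher with both siRNAs by a smaller amount and with a narrower spread. It had 75.3 CPM at the lowest, 87.4 at the median and 94.6 at the highest with siRagC1, and 78.3, 83.0 and 92.6 CPM with siRagC2, against 62.9, 68.6 and 68.9 CPM with siCtrl. Every knock-down library lay above every siCtrl library. The fold was 1.27 with siRagC1 and 1.25 with siRagC2. Among all tested genes, 0.516% lay wholly above the controls in this way with siRagC1 and 0.601% with siRagC2. The rise of ASAH1 helped choose the set, so nothing is read from this. On the 4 libraries a group of series D1221 alone, neither ASAH1 (log2 fold change 0.27 with siRagC1 and 0.29 with siRagC2) nor SMPDL3B (0.66 and 0.87) was called. On the 2 libraries a group of D1103 alone, the log2 fold changes were 0.48 and 0.38 for ASAH1 and 0.77 and 1.26 for SMPDL3B.

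By the threshold used across the whole table (edgeR, adjusted p under 0.05 over 15307 genes), these were the 2 members called higher with each siRNA, and 0 members were called lower (0 at an unadjusted p under 0.05, 0 by DESeq2). DESeq2 called 3 higher with each siRNA, and its share over all tested genes was not counted. By edgeR, 1.41% of all tested genes were called higher and 0.627% lower with siRagC1. The shares for siRagC2 were 1.87% and 1.36%. Because those calls led to the choice of the 10 genes, nothing is read from the count. Both comparisons use the same 6 siCtrl libraries. The median log2 fold change of the 10 was 0.096 with siRagC1 and 0.059 with siRagC2, against 0.0051 and 0.0047 over all tested genes. It includes SMPDL3B and ASAH1, whose rises chose the set, so nothing is read from it either. Over the other 8 members the median was 0.057 and 0.026.

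**Figure D2:**
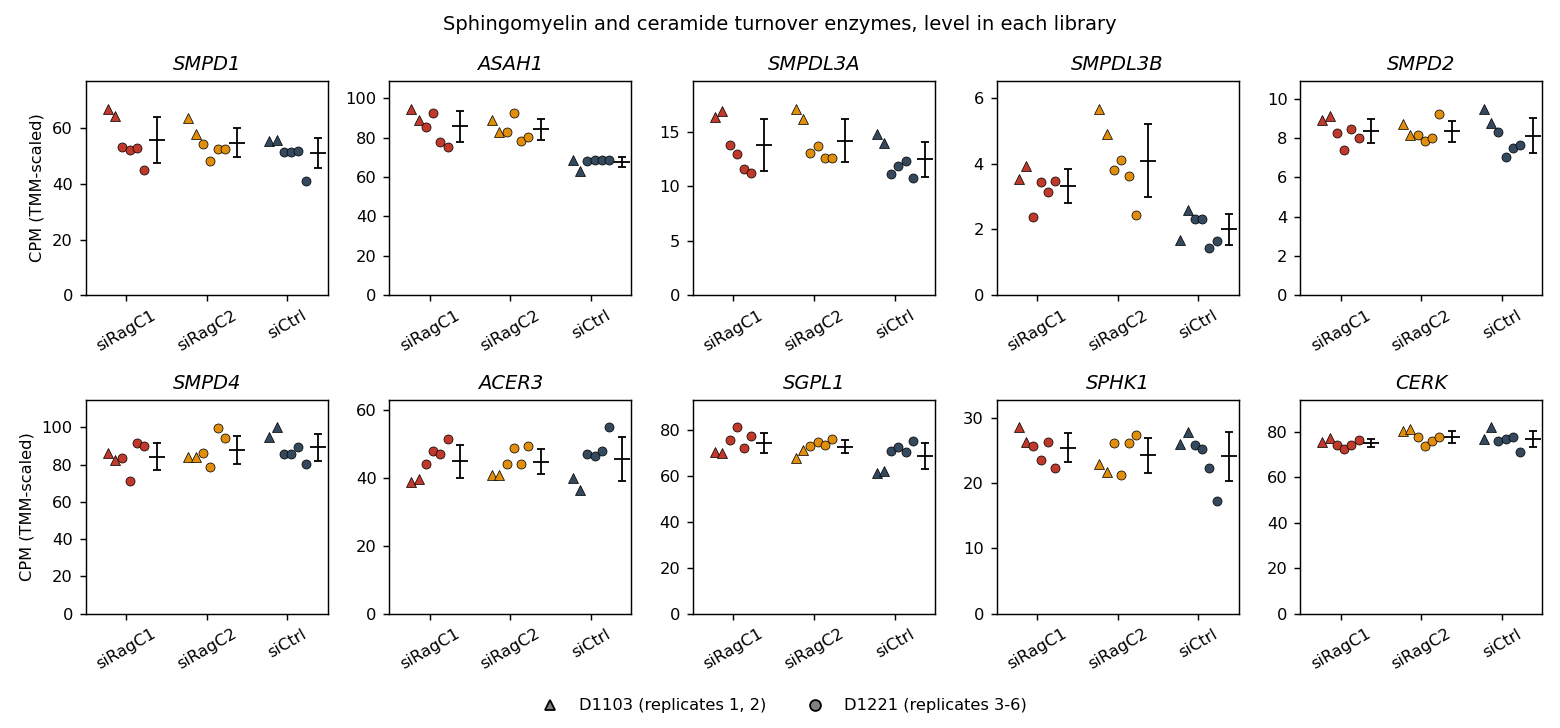
Level of the 10 genes in each of the 18 libraries, in TMM-scaled CPM from 0, by siRNA group, with triangles for series D1103, circles for D1221 and black bars at the mean ± SD of 6. ASAH1 lies above the siCtrl range in all 12 knock-down libraries and SMPDL3B in 10 of them, while the groups overlap for the other 8 genes.

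The acid-type relatives of SMPDL3B missed the threshold. SMPD1 had 45.0 CPM at the lowest, 53.1 at the median and 67.0 at the highest with siRagC1, and 48.1, 53.5 and 63.6 CPM with siRagC2, against 41.0, 51.7 and 55.8 CPM with siCtrl. The groups overlapped, and the log2 fold changes were 0.12 ± 0.06 with siRagC1 (95% interval -0.0060 to 0.24, adjusted p = 0.319) and 0.10 ± 0.06 with siRagC2 (-0.025 to 0.23, adjusted p = 0.402). SMPDL3A had 11.2, 13.3 and 16.9 CPM with siRagC1 and 12.5, 13.4 and 17.1 CPM with siRagC2 (lowest, median and highest), against 10.8, 12.1 and 14.8 CPM with siCtrl. It exceeded the same-numbered control in 5 of 6 pairs with siRagC1 and in 6 of 6 with siRagC2. Its log2 fold changes were 0.15 ± 0.06 (adjusted p = 0.206) and 0.19 ± 0.06 (adjusted p = 0.0884), and for siRagC2 it passed with DESeq2 (adjusted p = 0.0498) and with limma-voom (adjusted p = 0.0488).

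SGPL1, which removes S1P for good, had small positive values with both siRNAs. It stood at 74.3 ± 4.38 CPM with siRagC1 and 72.6 ± 2.93 CPM with siRagC2, against 68.6 ± 5.76 CPM with siCtrl (SD, n = 6). SGPL1 exceeded the same-numbered control in 6 of 6 cases of each comparison, though the numbers did not pair siRagC1 with siCtrl. The log2 fold changes were 0.12 ± 0.04 (95% interval 0.037 to 0.20, adjusted p = 0.111) and 0.09 ± 0.04 (0.0049 to 0.17, adjusted p = 0.236). With DESeq2 the siRagC1 value of 0.12 passed (adjusted p = 0.0373). The intervals cover 1 gene at a time, while the adjusted p is over all genes.

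The neutral sphingomyelinases, the alkaline ceramidase and the kinases showed no call in either comparison by edgeR. SMPD2 stood at 8.36 ± 0.633 and 8.35 ± 0.531 CPM with siRagC1 and siRagC2, against 8.13 ± 0.891 CPM with siCtrl. SMPD4 stood at 84.3 ± 7.30 and 87.9 ± 7.71 CPM, against 89.3 ± 7.12 CPM. ACER3, the ceramidase of the endoplasmic reticulum and Golgi, stood at 44.8 ± 4.96 and 44.7 ± 3.68 CPM, against 45.4 ± 6.44 CPM. For these genes the spread within a group exceeded the difference between groups.

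SPHK1, which makes S1P, stood at 25.4 ± 2.22 CPM with siRagC1 and 24.2 ± 2.66 CPM with siRagC2, against 24.1 ± 3.80 CPM with siCtrl. CERK, which phosphorylates ceramide, stood at 74.9 ± 1.78 and 77.7 ± 2.75 CPM, against 76.6 ± 3.50 CPM. Its 95% intervals ran from -0.11 to 0.042 on the log2 scale with siRagC1 and from -0.054 to 0.094 with siRagC2. For SPHK1 the intervals were wider, from -0.12 to 0.27 and from -0.19 to 0.20. Over SMPD2, SMPD4, ACER3, SPHK1 and CERK, adjusted p lay between 0.546 and 0.994. The SMPD4 counts are uncertain because near copies are annotated, of which SMPD4BP had up to 17.2 CPM. In addition, 11.1% of the SMPD4 exons overlap MZT2B on the other strand, and MZT2B had 31.5 to 75.3 CPM. SMPD2 overlaps PPIL6 on the other strand over 20.3% of its exons, and PPIL6 had at most 1.14 CPM.

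**Figure D3:**
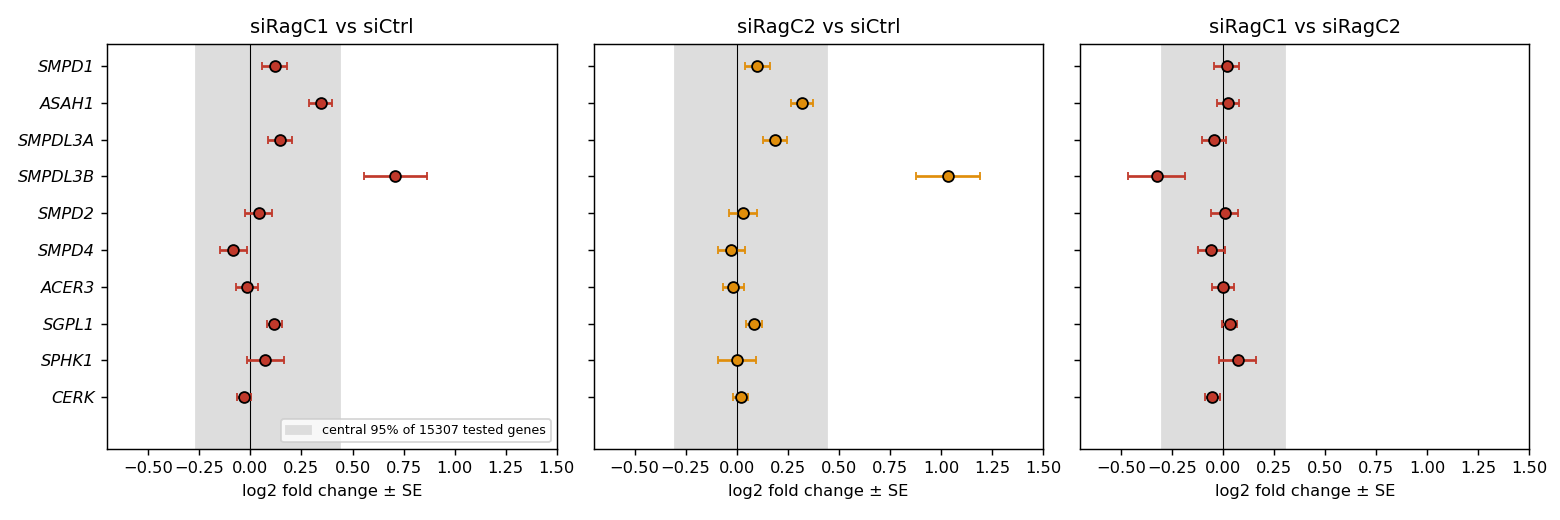
Log2 fold change of the 10 genes with bars of 1 SE, for siRagC1 over siCtrl, siRagC2 over siCtrl and siRagC1 over siRagC2; the grey band holds the central 95% of the 15307 tested genes. SMPDL3B, whose rise helped choose the set, lies above the band with both siRNAs (0.71 and 1.03), and it alone among the 10 lies outside a band over siCtrl. Between the siRNAs it lies at -0.32, below the lower edge of the band at -0.30.

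Comparing the siRNAs with each other did not enter the choice of the genes. SMPDL3B had the largest difference of the 10, at 3.32 ± 0.525 CPM with siRagC1 against 4.09 ± 1.11 CPM with siRagC2 (SD, n = 6), and was lower with siRagC1 in 5 of 6 same-numbered pairs. The log2 difference of -0.32 ± 0.14 (95% interval -0.61 to -0.034) had an adjusted p of 0.608 (edgeR) and missed the threshold. RRAGC itself stood at 23.9 ± 7.58 CPM with siRagC1 against 27.8 ± 8.30 CPM with siRagC2 (adjusted p = 0.792). For ASAH1 the difference was 0.02 ± 0.05, with an interval from -0.090 to 0.14.

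Over the remaining 8 members the log2 difference lay between -0.057 and 0.071, and the outermost bounds of their intervals were -0.19 and 0.26. In edgeR 0 of the 10 members were called (1, SMPDL3B, at an unadjusted p under 0.05), as were 0 of all 15307 tested genes, or 0%, with 1187 genes (7.75%) at an unadjusted p under 0.05. The same-numbered libraries of these groups deviated together, though they also share a code series, which that check did not take off. A fit with the replicate number as a block also called 0 genes (1569 at an unadjusted p under 0.05). DESeq2 called 29 genes between the siRNAs, 0.189% of those tested, and 0 of the 10.

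Several of the 10 differed between the code series, with means shifted in the same direction in each siRNA group, though by amounts that varied between groups. This contrast was chosen after the values were seen and was fitted with the siRNA group in the model. SMPDL3A stood at 12.3 ± 0.992 CPM in D1221 (n = 12) against 15.9 ± 1.24 CPM in D1103 (n = 6), a log2 difference of -0.37 ± 0.05 (adjusted p = 7.84e-06). SMPD1 was lower in D1221 by the same measure (-0.26 ± 0.05, adjusted p = 0.000305), with 50.6 ± 3.94 against 60.7 ± 4.89 CPM. ACER3 was higher in D1221, at 47.7 ± 3.15 against 39.4 ± 1.63 CPM (0.28 ± 0.05, adjusted p = 6.68e-05). For SMPDL3A, SMPD1 and ACER3 the series did not overlap. The share of all tested genes without overlap was not counted, so nothing is read from this. SGPL1 was also higher in D1221 (0.15 ± 0.03, adjusted p = 0.000964). In all, 6 of the 10 were called between series, the other 2 being SMPDL3B (-0.36 ± 0.12) and SMPD2 (-0.15 ± 0.06), where 48.8% of all tested genes were called.

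Within each series the changes over siCtrl were positive for the genes that chose the set. The log2 ratio of group means for SMPDL3B was 0.69 in D1221 and 0.80 in D1103 with siRagC1, and 0.86 in D1221 and 1.30 in D1103 with siRagC2. For ASAH1 it was 0.27 in D1221 and 0.48 in D1103 with siRagC1, and 0.29 in D1221 and 0.38 in D1103 with siRagC2. Whether the effect of an siRNA differed between the series was tested directly, and 0 of the 10 members passed for either siRNA, as did 0 of all 15307 genes (edgeR; DESeq2 also called 0 members; 310 genes, 2.03%, for siRagC1 and 1019, 6.66%, for siRagC2 at an unadjusted p under 0.05). SPHK1 came nearest with siRagC2, with log2 ratios of 0.16 in D1221 and -0.27 in D1103 (difference 0.43 ± 0.18, adjusted p = 0.735, unadjusted p = 0.0258). SMPD4 had 0.07 in D1221 and -0.21 in D1103 with siRagC2 (difference 0.28 ± 0.13, adjusted p = 0.735, unadjusted p = 0.0401).

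Genes whose level followed a member most closely over the 18 libraries are named as a description only. The mean of each series was first taken off the log2 CPM, and named genes with a mean of at least 5 CPM were compared. Closest to SMPDL3B were LITAF (Pearson r = 0.902), BMF (0.880) and HMOX1 (0.872). LITAF encodes a protein of late endosomes, BMF a proapoptotic BH3 protein and HMOX1 heme oxygenase. The closest to ASAH1, among 10872 other genes, were PHYH (0.942), CCN3 (0.941) and SLC17A5 (0.940). PHYH is a peroxisomal enzyme of phytanic acid breakdown, CCN3 a secreted matrix-associated protein and SLC17A5 the lysosomal sialic acid exporter. The group means were not taken off, so r holds the differences between siRNA groups as well as the scatter within them.

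The other genes of sphingolipid metabolism were followed in a list of 58, ordered by role, of which 51 were tested. With siRagC1, 8 were higher and 0 lower, and with siRagC2, 7 were higher and 2 lower, and the median log2 fold change was 0.051 and 0.047. Set beside the table as a whole, 2.04% of all tested genes were called in either direction with siRagC1 and 3.23% with siRagC2. With the replicate block, calls over all tested genes in the siRagC2 comparison numbered 986, against 495 without it, while the listed genes gave 8 higher and 2 lower. DESeq2 called 12 listed genes higher and 1 lower for siRagC1, and its share over all tested genes was not counted. The calls fell mostly among the 15 genes of glycosphingolipids and their lysosomal breakdown, with 7 higher with siRagC1 (median 0.17), and 6 higher and 1 lower with siRagC2 (median 0.13). The list was drawn up with earlier results of these libraries known, so it is no independent evidence of a direction.

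PSAP, the precursor of the saposins that present sphingolipids to lysosomal enzymes, including acid ceramidase, stood at 863 ± 132 CPM with siRagC1 and 844 ± 97.4 CPM with siRagC2, against 720 ± 76.0 CPM with siCtrl (SD, n = 6). It rose by 0.25 ± 0.05 (edgeR, adjusted p = 0.00881) and 0.23 ± 0.05 (adjusted p = 0.0121) on the log2 scale. GM2A, the activator of ganglioside breakdown, rose by 0.27 ± 0.04 (adjusted p = 0.00247) and 0.23 ± 0.04 (adjusted p = 0.00687). NEU1 and GLB1 also rose with both siRNAs, and HEXA with siRagC1.

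UGCG, which uses ceramide to make glucosylceramide, fell with siRagC2 by 0.18 ± 0.05 (adjusted p = 0.0398), with a log2 fold change of -0.09 ± 0.05 with siRagC1 (adjusted p = 0.356). The difference between the siRNAs was called by edgeR for 0 of the 51 listed genes, and by DESeq2 for 1, among the other turnover enzymes. Among S1P receptors, S1PR1 rose by 0.51 ± 0.11 (adjusted p = 0.0206) and 0.52 ± 0.11 (adjusted p = 0.0151), at 2.47 ± 0.328 and 2.44 ± 0.457 CPM, against 1.73 ± 0.313 CPM with siCtrl.

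The count on the synthesis side is given by tool. Of 15 tested genes of de novo ceramide synthesis, 0 were called by edgeR with either siRNA (medians 0.027 and 0.0036). At an unadjusted p under 0.05, 2 were higher and 3 lower for siRagC1, while for siRagC2 there were 3 higher and 2 lower. The share of all genes under that p was not counted in this fit. With the replicate block, 3187 (siRagC1) and 3313 (siRagC2) of all 15307 genes had an unadjusted p under 0.05, so nothing is read from such counts. Of the 15 genes, DESeq2 called 2 higher and 1 lower with siRagC1, and 0 with siRagC2. Its share over all tested genes was not counted either, so nothing is read from the difference between the tools. Of 5 genes of sphingomyelin synthesis and ceramide transfer, both tools called 0 (medians 0.0026 and 0.053), with 1 and 2 higher at an unadjusted p under 0.05. Among 10 other tested turnover enzymes, edgeR called 0 and DESeq2 1 with siRagC1. NSMAF, an adaptor that links neutral sphingomyelinase to the TNF receptor, fell with siRagC2 by 0.28 ± 0.07 (edgeR, adjusted p = 0.0226). It stood at 58.8 ± 8.76 CPM there, against 70.8 ± 4.32 CPM with siCtrl. With siRagC1 it stood at 70.6 ± 4.21 CPM (log2 fold change -0.00045, edgeR, adjusted p = 0.999). The difference between the siRNAs, 0.28 ± 0.06, missed the threshold (edgeR, adjusted p = 0.280). SPHK2, the second sphingosine kinase, had log2 fold changes of 0.05 ± 0.08 and -0.05 ± 0.08. Under 1 CPM in every library were SPTSSB, CERS3, DEGS2, SMPD5, ENPP7, ACER1, SGPP2, S1PR4 and S1PR5.

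**Figure D4:**
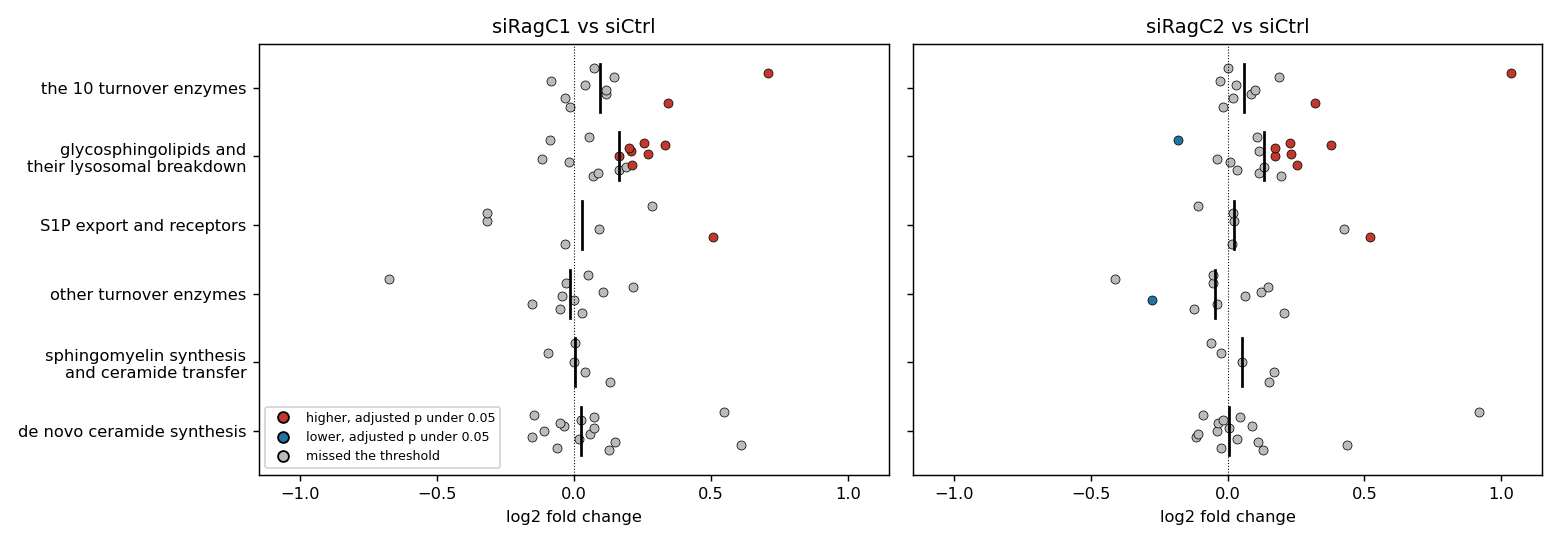
Log2 fold change over siCtrl of each tested sphingolipid gene by role, for siRagC1 and siRagC2, with red for higher, blue for lower and grey for genes that missed an adjusted p of 0.05; black bars mark the median of each row. The genes called higher sit mainly in the row of glycosphingolipid breakdown, at log2 fold changes of 0.17 to 0.38, with 0 calls by edgeR in the rows of de novo ceramide synthesis and sphingomyelin synthesis.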

How the data were processed

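Total RNA from 18 samples, 500 ng each per the labels, was sequenced. A whole-series table of unnormalized counts was deposited by the authors. Per the submitters' processing notes, cutadapt 0.6.2 and STAR 2.7.6a were used with GRCh37/hg19. Which tool, strand setting and annotation gave the counts was not stated. Library totals ran from 14829597 to 71622456 counts, with medians of 36.1 M (siRagC1), 24.6 M (siRagC2) and 21.4 M (siCtrl).

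The fit was edgeR 4.0.16 (R 4.3.3) and its quasi-likelihood test with robust estimation, after filterByExpr and TMM scaling, with terms for code series and group over all 18 libraries. p-values were adjusted by Benjamini-Hochberg over all 15307 tested genes, and genes were called at an adjusted p under 0.05. Alternatives used limma 3.58.1 (voom) and DESeq2 1.42.0, among others. The procedure was also run on simulated data that held no code series effect, and nothing about its power here is read from that run. Exon lengths came from GENCODE 29 (GRCh38) by Ensembl identifier and differ from the submitters' build, so levels per kilobase are approximate.

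The 10 members, the sphingolipid list and the tests were chosen with earlier results of these data known. The text names all 10 members, RRAGC, listed sphingolipid genes that were called or stayed under 1 CPM, and the 3 genes (mean of at least 5 CPM) most like SMPDL3B and ASAH1, beside a fixed list of cell markers. Some listed genes that were called are not reported here by name. SPHK2, overlapping genes, near copies and the contrast of code series were added after the values were seen. Same-numbered samples counted as paired if all correlations of their deviations from the group mean exceeded 0.1. This held for siRagC2 with siCtrl (0.116 to 0.492) and siRagC1 with siRagC2 (0.221 to 0.582) but not for siRagC1 with siCtrl (0.0765 to 0.610). The code series was left in these deviations, and same-numbered samples share a series. The rule therefore cannot tell pairing by number from a shared series. Between replicates of a group the spread of counts was 2.81 to 81.7 times the counting variance, so no library duplicated another. Reads, isoforms, lipids and protein were not analysed here.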

Additional observations from a re-analysis of the deposited data

Results flagged for a closer look

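Of 30 sets of 6 libraries (10 genes in 3 groups), 2 held a library that stood apart from the other 5 by Dixon's test, and chance alone flags about 1 in 20. ASAH1 stood at 62.9 CPM in siCtrl replicate 2, where the next siCtrl library had 68.2 CPM. SMPD1 stood at 41.0 CPM in siCtrl replicate 6, where the next had 51.3 CPM. Without siCtrl replicate 6, the log2 fold change of SMPD1 was 0.078 with siRagC1 and 0.060 with siRagC2, with no call in either.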

How the results depend on the processing

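Of 717 recomputed values of single members, 347 under other settings and 357 with 1 library left out stayed on the same side of the threshold, and 52 values that missed it changed sign. The replicate block left the members called at 2 higher and 0 lower with siRagC1, at 2 higher and 0 lower with siRagC2 and at 0 between the siRNAs. For siRagC1, where the numbers did not pair the samples, the block called 864 genes over the whole table, against 312 without it, and 12 listed sphingolipid genes higher and 1 lower, against 8 and 0, settings added after seeing the data. With a filter of 5 CPM in 6 libraries, 1 member was higher with each siRNA, since SMPDL3B was not tested. With siRagC1, 1 member was higher without the code series term and 1 at an adjusted p under 0.01, where SMPDL3B no longer passed (log2 fold change 0.70 and 0.71). With series D1221 alone, 0 members were higher with either siRNA by edgeR, at values of 0.66 and 0.87 for SMPDL3B and 0.27 and 0.29 for ASAH1 on 4 libraries a group. With D1103 alone, the values were 0.77 and 1.26 for SMPDL3B and 0.48 and 0.38 for ASAH1. There 1 member was lower with siRagC2 (SMPD4, -0.21, edgeR, adjusted p = 0.0473). Apart from the replicate block, the share of all tested genes called under these settings was not counted. Nothing is therefore read from the counts of members in them. Leaving out 1 library gave 1 to 2 members higher with siRagC1. SMPDL3B was lost without siCtrl replicate 1 (0.61), siCtrl replicate 5 (0.66) or siRagC1 replicate 2 (0.70). ASAH1 had log2 fold changes of 0.31 to 0.38 over the 12 such fits. With siRagC2 the values ran from 0.93 to 1.11 for SMPDL3B and from 0.29 to 0.34 for ASAH1. Calls of these 2 genes over siCtrl rest on values that chose the set, so nothing is read from them. The order of levels changed at 6 places without lengths and at 6 with the principal transcript, an alternative chosen after seeing the data. Counts of 27 to 275 limit SMPDL3B.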
